A study of Mus musculus with 6 samples.

Results

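The Ly49 receptor family was followed in natural killer (NK) cells of mouse spleen through 10 Klra genes: the 2 activating members Klra4 and Klra8, the 6 inhibitory members Klra1, Klra3, Klra5, Klra7, Klra9 and Klra17, and the pseudogenes Klra13-ps and Klra14-ps. Members were taken by gene symbol from the deposited count table, where 10 of 10 were present among 55291 gene rows. The groups were 3 S303/7A mice (libraries S303/7A 5, 6 and 7), whose heat shock factor 1 (HSF1) carries alanine in place of the serines at residues 303 and 307, and 3 mice with wild-type HSF1 (WT 1, 2 and 3). All were kept at steady state, and each mouse gave 1 library of bulk RNA from cells enriched with DX5 beads and sorted as CD49b+ and CD3e-. Strain, sex and age were not given in the sources used here. HSF1 is the transcription factor of the heat shock response, and the submitters describe the mutant mice as HSF1-enhanced. The question put to the family is whether its levels in unstimulated NK cells depend on this HSF1 genotype.

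Ly49 receptors are lectin-like dimers on the surface of mouse NK cells, and most of them recognise MHC class I molecules on other cells. Inhibitory members carry an ITIM, a short tyrosine-based motif near the start of the protein, through which they recruit phosphatases such as SHP-1 (Ptpn6). Activating members lack it and pair with the adaptors DAP12 (Tyrobp) and DAP10 (Hcst). Each NK cell expresses only some members, and inbred mouse strains differ in the number and the versions of Ly49 genes they carry. A bulk level of a Ly49 transcript can therefore differ through fewer cells that express it or through less RNA per cell, and the libraries cannot tell these apart.

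The start of the coding sequence is shown for the 8 protein-coding members because it holds the difference between the classes. Each line gives the first 54 bases from the start codon, read from the GENCODE M21 transcript (GRCm38, chromosome 6, minus strand), with codon 8 in capitals.
Klra4: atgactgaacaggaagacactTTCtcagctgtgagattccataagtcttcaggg
Klra8: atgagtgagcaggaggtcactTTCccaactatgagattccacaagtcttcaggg
Klra1: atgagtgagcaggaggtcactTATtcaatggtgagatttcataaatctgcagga
Klra3: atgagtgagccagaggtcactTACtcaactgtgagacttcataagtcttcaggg
Klra5: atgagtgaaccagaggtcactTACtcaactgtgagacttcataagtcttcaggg
Klra7: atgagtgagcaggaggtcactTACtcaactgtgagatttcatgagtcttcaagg
Klra9: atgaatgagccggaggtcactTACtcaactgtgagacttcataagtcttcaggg
Klra17: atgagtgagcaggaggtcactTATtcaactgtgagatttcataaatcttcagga
The codon in capitals is TTC, a phenylalanine codon, in the 2 activating members, and TAC or TAT, the tyrosine codons, in the 6 inhibitory members. Outside this codon the family is closely related. Coding sequences were 95.9% identical between Klra3 and Klra9 over 801 aligned bases and 91.9% between Klra8 and Klra9, and the lowest identity of any pair was 77.9%, between Klra3 and Klra17.

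The likeness matters for counting, because a short read from a shared stretch could come from more than 1 gene. Of all 50-base stretches of each member's annotated transcripts, 33.1% in Klra8, 31.5% in Klra9, 25.6% in Klra14-ps and 20.7% in Klra3 also occurred without a mismatch in another Klra gene. The share was 13.7% in Klra13-ps, 12.3% in Klra7, 4.35% in Klra4, 2.98% in Klra1, 0.655% in Klra5 and 0% in Klra17. Klra8 shared most with Klra14-ps (20.4% of its stretches), and Klra7 with Klra13-ps (12.3%). The 50-base length was a fixed choice and was not matched to the length of the reads. These shares are therefore not the shares of reads with several matches. The sources used here do not say how reads with several matches were counted, so the levels of Klra8, Klra9, Klra3, Klra7 and the pseudogenes are uncertain in that respect.

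Total counts ranged from 43189163 to 47248039 in S303/7A and from 53845572 to 72736406 in WT, so depth differed with genotype. Of 16480 genes, edgeR's quasi-likelihood test called 60 (0.364%) at an adjusted p under 0.05, 22 higher and 38 lower in S303/7A. Levels are given as CPM, the counts of a gene as a share of the TMM-scaled library size. The sort was checked by its markers: of 10 NK markers all were measured, with a summed level of 23837 to 25024 CPM in S303/7A and 23134 to 26904 CPM in WT, and 1, Klrb1c, was called lower. The mutations change codons of Hsf1, so its level does not check the labels. Hsf1 had 67.0, 42.2 and 76.9 CPM in S303/7A, against 83.2, 104 and 108 CPM in WT, and was not called.

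Within S303/7A, library 6 stood apart from libraries 5 and 7 for most of the family. It was the S303/7A library nearest to the WT mean on the log2 scale for 9 of the 10 members and for 13 of all 14 Klra rows in the table, while over all tested genes library 6 was nearest for 33.0%, library 5 for 33.4% and library 7 for 33.6%. Its level lay within the range of the 3 WT libraries for 4 members (Klra1, Klra3, Klra4 and Klra14-ps), while libraries 5 and 7 lay within that range for 0 of 10. Over all tested genes the shares within the WT range were 44.3% for library 6, 43.8% for library 5 and 42.9% for library 7. Results below are given with and without library 6. Because library 6 was singled out by its levels of these same members, larger folds and smaller errors without it follow from that choice, so values and calls without it are descriptions and not tests. The labels give no batch, litter or strain, and the cause was not tested. Ly49 and MHC class I genes differ between inbred strains, and whether the mice differed in genetic background at these genes was not tested. This limit bears on every Ly49 and H2 fold below. It bears also on the NK gene complex genes outside the family that are named below, which lie on chromosome 6 too.

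**Figure D1:**
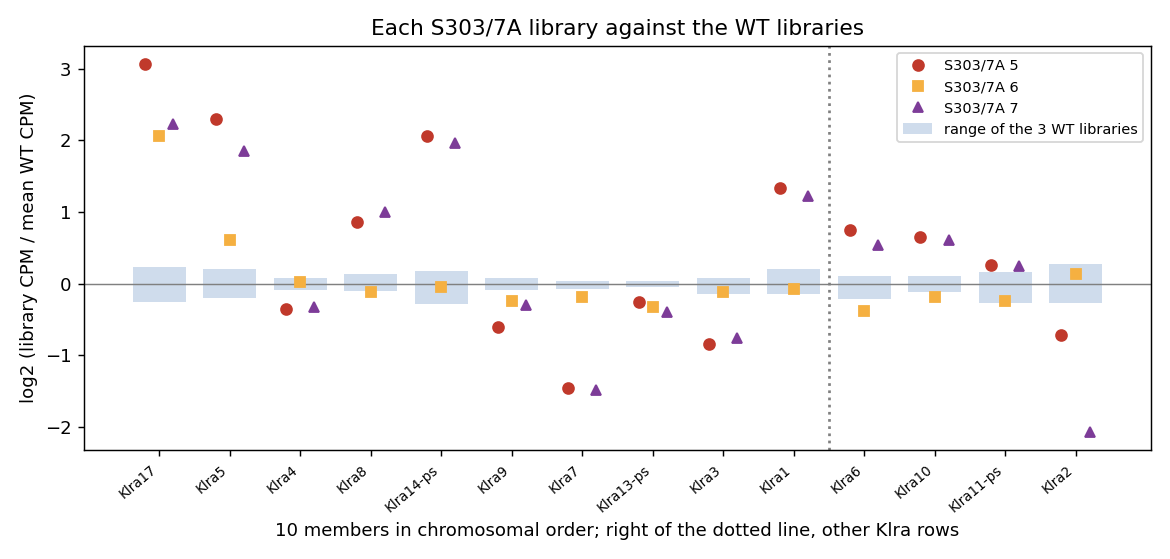
Each S303/7A library against WT, as log2 of the library's CPM over the mean WT CPM (vertical axis), for the 10 members in chromosomal order and the 4 other Klra rows. Circles, squares and triangles are S303/7A 5, 6 and 7, and pale bars span the 3 WT libraries. Library 6 lies nearest to the WT mean for 13 of the 14 rows, while Klra17 is far above WT in every S303/7A library.

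With all 6 libraries, 1 of the 10 members, Klra17, was called higher in S303/7A and 0 were called lower, against 0.133% of all tested genes called higher, 0.231% called lower and 0.364% either way. Unadjusted, 9 members had a p under 0.05 in that test, 5 higher and 4 lower, where 9.68% of all tested genes did (4.21% higher and 5.47% lower). In 5 members the groups did not overlap (Klra5 and Klra17 higher, Klra7, Klra9 and Klra13-ps lower in S303/7A), against 16% of all tested genes (7.64% higher and 8.37% lower). The median log2 fold of the members was 0.23, with 5 above 0 and 5 below, beside 0.01 for all tested genes. With S303/7A 6 left out for its likeness to WT in these members, the same fit put 6 members past the threshold, which is a description: Klra1, Klra5, Klra8, Klra14-ps and Klra17 higher, and Klra7 lower. In that fit 0.324% of all tested genes were called. DESeq2 called 4 members beside 2.65% of all genes, edgeR without the low-count filter 2 beside 0.502%, and limma-voom 0 beside 0.231%. Klra17 alone was called with library totals (0.37% of all genes), DESeq2 size factors (0.364%) and counts thinned to equal totals (0.355%). Leaving out any other 1 library gave 0 members and 0.0296% (WT 2), 0.123% (WT 3), 0.158% (WT 1), 0.172% (S303/7A 7) or 0.177% (S303/7A 5) of all genes. All 10 members passed the low-count filter.

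**Figure D2:**
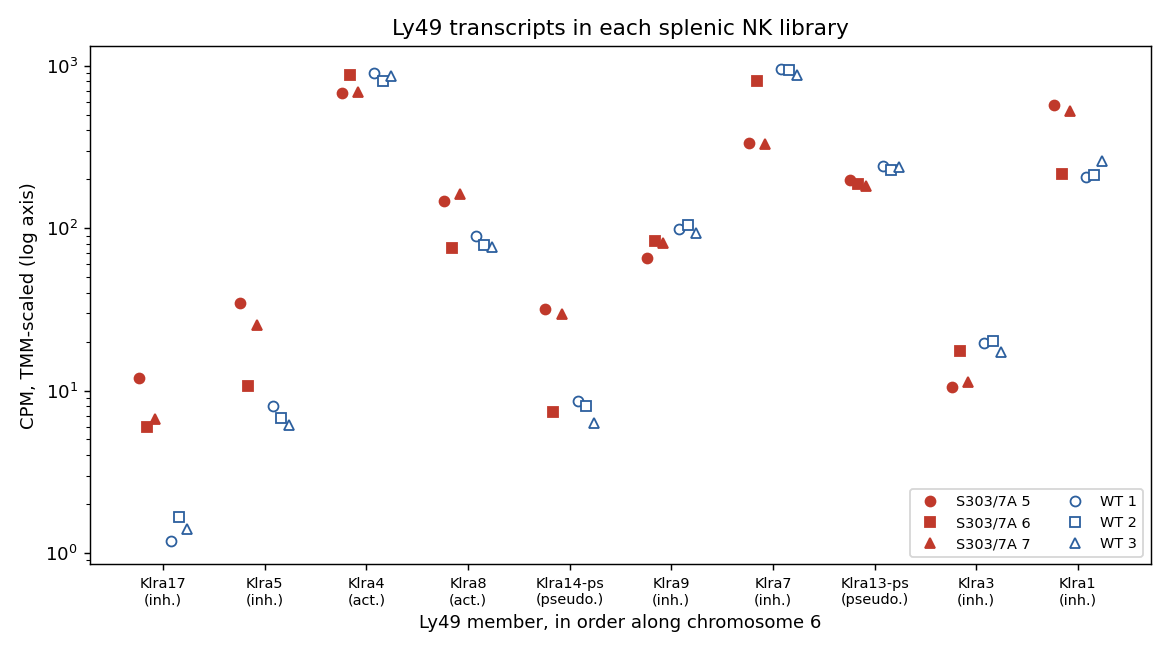
TMM-scaled CPM of each member in each library (vertical log axis), ordered along chromosome 6. Filled red symbols are S303/7A 5, 6 and 7, and open blue symbols are WT 1, 2 and 3. Every S303/7A value of Klra17 and Klra5 lies above all WT values, while for Klra1, Klra8 and Klra14-ps only libraries 5 and 7 are higher.

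The 2 activating members had folds of opposite sign, and neither was called with all libraries. Klra8 encodes Ly49H, the receptor that recognises a protein of mouse cytomegalovirus in resistant strains. It was measured at 148, 75.4 and 163 CPM in S303/7A 5, 6 and 7, against 89.8, 78.3 and 76.2 CPM in WT 1, 2 and 3. Libraries 5 and 7 were above every WT library and library 6 was below them all, so the groups overlapped. The fitted log2 fold was 0.66 ± 0.26 (SE), for which edgeR gave an adjusted p of 0.487. Without S303/7A 6 the log2 fold was 0.93 ± 0.10.

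Klra4 encodes Ly49D, an activating receptor for certain MHC class I alleles. Its level was 675, 878 and 684 CPM in S303/7A 5, 6 and 7, against 907, 810.3 and 864 CPM in WT 1, 2 and 3. Here libraries 5 and 7 were below every WT library and library 6 lay inside the WT range, the opposite direction to Klra8. The log2 fold was -0.21 ± 0.11 (SE), for which edgeR gave an adjusted p of 0.630, and a range of 2 SE each way from -0.43 to 0.01. Without library 6 it was -0.34 ± 0.07. Klra8 made up 18.0%, 7.91% and 19.2% of activating counts in S303/7A 5, 6 and 7, against 9.01%, 8.81% and 8.10% in WT 1, 2 and 3.

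Among the inhibitory members, Klra17 had the largest log2 fold and was the one called with all libraries. It encodes Ly49Q, a receptor best known from plasmacytoid dendritic cells and other myeloid cells. Klra17 was measured at 11.9, 5.96 and 6.64 CPM in S303/7A 5, 6 and 7, against 1.19, 1.67 and 1.40 CPM in WT 1, 2 and 3. All 3 S303/7A libraries, library 6 included, were above every WT library. The gene spans 129831154 to 129876672 on chromosome 6, and 2 rows annotated inside it held 18 (Gm44248) and 1 (Gm17631) counts over all libraries. The levels of Klra17 rested on 509, 257 and 310 counts in S303/7A and on 75, 91 and 103 counts in WT. This gave a log2 fold of 2.52 ± 0.33 (SE), for which edgeR gave an adjusted p of 0.0454.

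The Klra17 call was close to the threshold. It was lost when any library other than S303/7A 6 was left out (adjusted p 0.0817 to 0.181, edgeR) and with limma-voom (0.0777), while the log2 fold stayed between 2.15 and 2.70 under all 12 alternatives. Markers of plasmacytoid dendritic cells are given beside it, and their part in the level of Klra17 was not tested. Of 10 markers, 8 were tested, 0 were called by edgeR, DESeq2 or limma-voom and 0 had an unadjusted p under 0.05, and their summed level was 148 to 172 CPM in S303/7A and 141 to 174 CPM in WT. Most of that sum came from Tcf4, Runx2 and Bst2. Of the 8 tested, 5 had folds above 0 and 3 below. Cox6a2 averaged 3.30 CPM in S303/7A and 6.77 CPM in WT and Ccr9 1.37 CPM and 2.87 CPM, with overlap in both. Ly6d averaged 7.18 CPM in S303/7A and 4.96 CPM in WT, Spib 3.71 CPM and 2.56 CPM and Pacsin1 2.14 CPM and 1.54 CPM, with overlap in each. The defining marker Siglech had 0, 0.348 and 0.128 CPM in S303/7A 5, 6 and 7, against 0, 0 and 0.313 CPM in WT 1, 2 and 3. Summed markers of monocytes and macrophages were at 787 to 865 CPM in S303/7A and 890 to 930 CPM in WT. Of this, Lyz2 averaged 17.2 CPM in S303/7A and 22.8 CPM in WT. Summed markers of neutrophils were at 34.0 to 38.0 CPM in S303/7A and 50.6 to 76.8 CPM in WT, most of it Cxcr2. Folds above 0 were seen for 1 of 6 tested monocyte and macrophage markers and 2 of 6 neutrophil markers.

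Because Klra17 is the called member, its start region is shown, as 300 bases that lie mostly before the RefSeq start (GRCm38.p6, minus strand, chr6:129876623-129876922).
Klra17: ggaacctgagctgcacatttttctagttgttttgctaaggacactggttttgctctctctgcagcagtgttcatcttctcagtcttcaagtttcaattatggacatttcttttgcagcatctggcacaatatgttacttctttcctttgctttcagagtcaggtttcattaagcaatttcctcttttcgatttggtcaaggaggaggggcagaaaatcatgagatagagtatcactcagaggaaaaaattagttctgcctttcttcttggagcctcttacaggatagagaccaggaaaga
RefSeq gave 10 such regions for the 8 protein-coding members, with 2 each for Klra7 and Klra8. The paired heat shock letters GAANNTTC or TTCNNGAA, searched on both strands, were found in 0 of the 10 regions, where 7.86% and 8.52% of all 32851 regions of this length hold them. The Runx letters TGTGGT were found in 1 of the 10, that of Klra1, where 16.8% of all regions hold them. No match says only that these letters are not in this window.

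Klra5, which encodes Ly49E, follows Klra17 in the order of the members and had the next largest log2 fold. It was measured at 34.4, 10.7 and 25.3 CPM in S303/7A 5, 6 and 7, against 8.08, 6.82 and 6.12 CPM in WT 1, 2 and 3. The groups did not overlap, but library 6 was much closer to WT than libraries 5 and 7 were. The log2 fold was 1.74 ± 0.40 (SE), for which edgeR gave an adjusted p of 0.194. It was called without the low-count filter (adjusted p 0.0264, edgeR) and in DESeq2 (0.000125). Without S303/7A 6 the log2 fold was 2.09 ± 0.21.

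Klra1 and Klra7, the most abundant inhibitory members, had folds of opposite sign. Klra1, at 130363917 to 130386874, encodes Ly49A, a receptor for H2-D molecules. It had 572, 216 and 528 CPM in S303/7A 5, 6 and 7, against 206, 213 and 261 CPM in WT 1, 2 and 3. Libraries 5 and 7 were at 2.52 and 2.33 times the WT mean, and library 6 at 0.952 times. This gave a log2 fold of 0.95 ± 0.33 (SE), with an adjusted p of 0.423 (edgeR), and 1.28 ± 0.11 without library 6.

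Klra7, at 130218605 to 130233322, encodes Ly49G, another inhibitory receptor for MHC class I. It had 334, 805 and 328 CPM in S303/7A 5, 6 and 7, against 948, 935 and 873 CPM in WT 1, 2 and 3. Libraries 5 and 7 were at 0.364 and 0.357 times the WT mean and library 6 at 0.876 times, and no S303/7A library reached the lowest WT value. The log2 fold was -0.91 ± 0.34 (SE), with an adjusted p of 0.449 (edgeR), and -1.47 ± 0.06 without library 6. The ratio of Klra7 to Klra1 counts was 0.585, 3.73 and 0.622 in S303/7A 5, 6 and 7, against 4.60, 4.39 and 3.35 in WT 1, 2 and 3. In libraries 5 and 7 the order of the pair was thus turned round.

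Klra9 and Klra3, which encode the near-identical receptors Ly49I and Ly49C, were both lower in S303/7A on average. Klra9 had 65.4, 83.8 and 80.9 CPM in S303/7A 5, 6 and 7, against 98.3, 105 and 93.5 CPM in WT 1, 2 and 3, with no overlap and a log2 fold of -0.37 ± 0.11 (SE). Klra3 had 10.6, 17.6 and 11.3 CPM, against 19.6, 20.2 and 17.3 CPM, with library 6 inside the WT range and a log2 fold of -0.53 ± 0.22. Neither passed with all libraries (adjusted p 0.345 and 0.498) or without library 6 (0.342 and 0.186) in edgeR's quasi-likelihood test.

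The pseudogenes, which do not encode a full receptor, gave a contrast of their own. Klra14-ps (Ly49N) had 31.8, 7.38 and 29.7 CPM in S303/7A 5, 6 and 7, against 8.61, 8.02 and 6.30 CPM in WT 1, 2 and 3. Library 6 lay inside the WT range, and libraries 5 and 7 were at 4.17 and 3.89 times the WT mean. This gave a log2 fold of 1.59 ± 0.50 (SE), with an adjusted p of 0.354 (edgeR), and 2.01 ± 0.18 without library 6. DESeq2 called it. Klra14-ps and Klra8 were both high in libraries 5 and 7, as were Klra1 and Klra5. The part of shared sequence in these levels was not tested.

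Klra13-ps (Ly49M) had 198, 188 and 181 CPM in S303/7A 5, 6 and 7, against 243, 228 and 238 CPM in WT 1, 2 and 3. All 3 S303/7A libraries were below every WT library, and they lay close together, with library 5 and not library 6 nearest to WT. The log2 fold was -0.32 ± 0.06 (SE), for which edgeR gave an adjusted p of 0.140, and DESeq2 called it (0.0059). Without library 6 it was -0.32 ± 0.08. Klra13-ps shares 13.7% of its 50-base stretches with Klra7. In libraries 5 and 7 Klra13-ps was at 0.838 and 0.764 times the WT mean, and Klra7 at 0.364 and 0.357 times. The part of shared sequence in these levels was not tested.

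**Figure D3:**
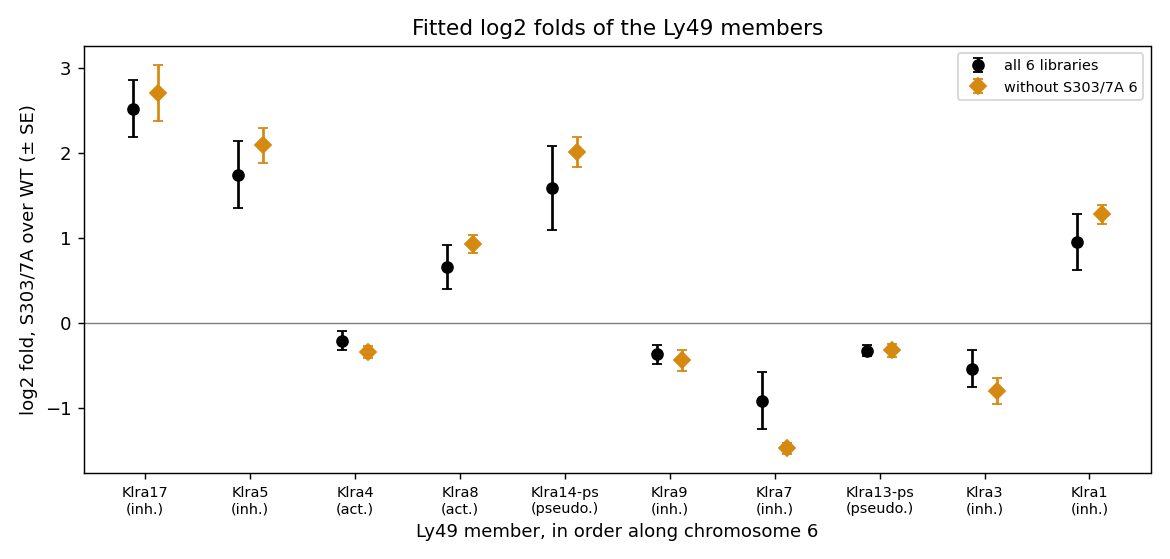
Fitted log2 fold of S303/7A over WT with its standard error (vertical axis) for each member in chromosomal order, with all 6 libraries (black circles) and without S303/7A 6 (orange diamonds). Folds above and below 0 are interleaved along the cluster. For Klra1, Klra3, Klra4, Klra5, Klra7, Klra8 and Klra14-ps leaving out library 6 moves the fold away from 0 and narrows its error. Klra17 moves from 2.52 to 2.70 with little change in its error, and Klra13-ps hardly moves.

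The 10 members lie on the minus strand of chromosome 6 in a stretch of 556 kb, from 129831154 to 130386874 (GRCm38). From low to high coordinate the order is Klra17, Klra5, Klra4, Klra8, Klra14-ps, Klra9, Klra7, Klra13-ps, Klra3 and Klra1. The signs of the log2 folds did not fall into 1 block each: those of Klra17, Klra5, Klra8, Klra14-ps and Klra1 were above 0, and Klra4 and the run from Klra9 to Klra3 were below 0. The members whose groups did not overlap lay in separate runs, Klra17 with Klra5, and Klra9 with Klra7 and Klra13-ps. The 5 whose groups overlapped lay between these runs (Klra4, Klra8 and Klra14-ps) and after them (Klra3 and Klra1). Of the 24 rows of the table inside the stretch, 14 were tested and 13 were Klra genes.

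The remaining Klra rows, Klra2, Klra6, Klra10 and Klra11-ps, were not called with all libraries or without library 6. Klra10 (Ly49J) had 38.7, 21.8 and 37.6 CPM in S303/7A 5, 6 and 7, against 22.9 to 26.6 CPM in WT, and Klra6 (Ly49F) had 6.60, 3.02 and 5.70 CPM, against 3.37 to 4.22 CPM. In both, libraries 5 and 7 were above every WT library and library 6 below them all, as for Klra8. Klra11-ps had a log2 fold of 0.11 ± 0.19 (SE). Klra2 (Ly49B), which lies apart from the cluster, was below 1 CPM in every library.

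Levels between members were compared per length, as CPM per kb of annotated exon. In WT, Klra7 (726 ± 31.5 CPM per kb, SD, n = 3) and Klra4 (691 ± 38.7) led and their ranges overlapped. They were followed by Klra13-ps (227 ± 6.94), Klra1 (128 ± 16.9), Klra9 (77.4 ± 4.53) and Klra8 (69.1 ± 6.23), of which the last pair overlapped. Klra3 (15.4 ± 1.24), Klra14-ps (6.86 ± 1.08), Klra5 (5.01 ± 0.712) and Klra17 (1.19 ± 0.204) were lowest, and Klra14-ps and Klra5 overlapped. In S303/7A 5 and 7 Klra4 ranked first, Klra1 next and then Klra7, while in library 6 the first 5 were Klra4, Klra7, Klra13-ps, Klra1 and Klra9.

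The spread between mice of 1 genotype was larger in S303/7A than in WT for each of the 10 members. The median SD of log2 CPM of the members was 0.57 in S303/7A and 0.12 in WT, beside 0.23 and 0.21 for all tested genes. In S303/7A the largest was that of Klra14-ps (1.18), which exceeded 95.5% of tested genes, followed by Klra5 (0.87) and Klra1 (0.78). The smallest was that of Klra13-ps (0.07), which exceeded 9.93%.

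Set against each other as classes, activating and inhibitory members differed less than single members did. Activating transcripts summed to 822, 953 and 847 CPM in S303/7A 5, 6 and 7, against 996, 889 and 940.3 CPM in WT 1, 2 and 3, and these overlapped. Inhibitory transcripts summed to 1028, 1139 and 981 CPM in S303/7A, against 1281, 1282 and 1253 CPM in WT, and did not overlap. The summed inhibitory level was thus lower in every S303/7A library, although 3 of its 6 members had folds above 0. Taken singly, 8.37% of all tested genes were lower in S303/7A without overlap, and the sum was not tested. Klra7 alone averaged 489 ± 274 CPM in S303/7A and 919 ± 39.9 CPM in WT (SD, n = 3 each).

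The activating share of the counts of the 8 protein-coding members was 44.4% in S303/7A 5 (95% Wilson interval 44.1% to 44.8%), 45.6% in 6 (45.2% to 45.9%) and 46.4% in 7 (46.0% to 46.7%). In WT it was 43.8% in library 1 (43.5% to 44.0%), 40.9% in 2 (40.7% to 41.2%) and 42.9% in 3 (42.6% to 43.1%). These intervals treat reads as independent draws and leave out the spread between mice. The labels mention no molecular identifiers, and reads without them are not independent molecules. The intervals can therefore be too narrow even for counting error. The means were 45.5 ± 0.962% in S303/7A and 42.5 ± 1.44% in WT (SD, n = 3 each), a difference of 2.93 percentage points with no overlap between the groups. It is a description and carries no test. Counted per kb of exon the shares were 49.4 ± 1.88% and 44.3 ± 1.49%, a difference of 5.04 points.

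The make-up within each class differed more between libraries than the balance between the classes. Klra7 was 32.5%, 70.7% and 33.5% of inhibitory counts in S303/7A 5, 6 and 7, against 69.7% to 74.0% in WT. Klra1 was 55.6%, 19.0% and 53.9%, against 16.1% to 20.8%. Library 6 lay within the WT range for these shares of Klra7 and Klra1, and just below it for the share of Klra8 among activating counts.

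**Figure D4:**
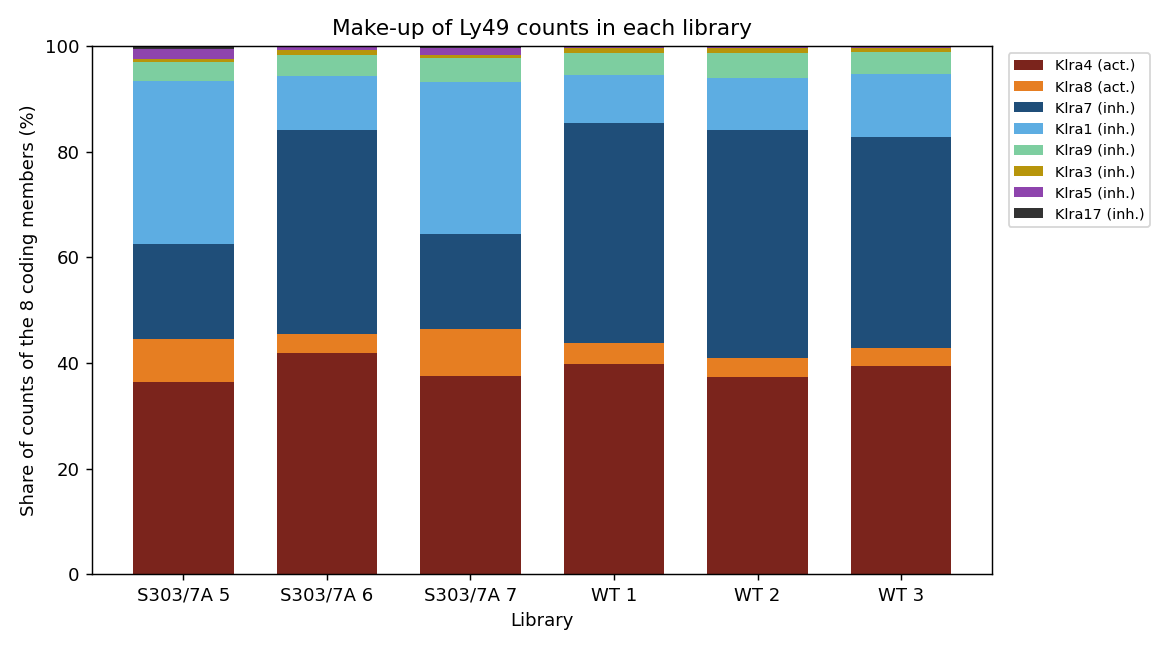
Share of each protein-coding member in the summed counts of the 8 (vertical axis, percent) in each library, with S303/7A libraries at the left. Activating members are stacked first in red and orange and reach 44.4% to 46.4% in S303/7A and 40.9% to 43.8% in WT. Klra1 (light blue) is larger than Klra7 (dark blue) in S303/7A 5 and 7 and smaller in the other 4 libraries.

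Genes of the receptors' signalling were not called, apart from 1. In the list of adaptors and activating signalling 0 of 15 were called, 1 (Vav1) had an unadjusted p under 0.05 and the median log2 fold was 0.08, beside 0.01 for all genes. Tyrobp had 2292, 2385 and 2211 CPM in S303/7A 5, 6 and 7, against 2180.5, 2192 and 2614 CPM in WT 1, 2 and 3, a log2 fold of -0.02 ± 0.08 (SE). Hcst had a log2 fold of -0.13 ± 0.09. In the list of inhibitory signalling 1 of 9, Sh2d1b2, was called lower, and the median was -0.01. Sh2d1b2 encodes an adaptor of SLAM family receptors. It had 2.57, 1.65 and 1.58 CPM in S303/7A, against 7.29, 7.997 and 6.72 CPM in WT (adjusted p 0.0462, edgeR), and was not called without library 6 (0.122). Ptpn6 had a log2 fold of -0.15 ± 0.12. Of 16 transcription factors tied to Ly49 expression, 0 were called by that test, 0 had an unadjusted p under 0.05, and DESeq2 and limma-voom called 0. These tools called 0 adaptors too, and only Sh2d1b2 in the inhibitory list.

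Of 12 tested genes of MHC class I ligands and their assembly 0 were called by edgeR's quasi-likelihood test, by DESeq2 and by limma-voom. In edgeR's test 3 had an unadjusted p under 0.05, where 9.68% of all tested genes did. These were H2-D1, H2-Q4 and H2-Q10, and all 3 passed the threshold without library 6, which is a description as above. In that fit 0.324% of all tested genes were called. H2-D1, whose product is a ligand of Ly49 receptors in several haplotypes, had 14960, 10366 and 15154 CPM in S303/7A 5, 6 and 7, against 9689, 10348 and 9448 CPM in WT 1, 2 and 3. Like Klra1, it was above every WT library in libraries 5 and 7, and library 6 was just above the highest WT library. The log2 fold of H2-D1 was 0.46 ± 0.14 (adjusted p 0.348, edgeR), and 0.61 ± 0.05 without library 6. H2-K1 had a log2 fold of -0.05 ± 0.05 and B2m, the shared light chain, of 0.06 ± 0.05, with adjusted p of 0.824 and 0.799 (edgeR).

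In the NK gene complex outside the Ly49 family, 2 of 21 tested genes were called higher (Klrb1a and Klrc3), 2 were called lower (Klrb1 and Klrb1c) and 15 had an unadjusted p under 0.05, with a median log2 fold of 0.08, where 0.364% of all tested genes were called and 9.68% had such a p. DESeq2 called 10 of them, beside 2.65% of all genes, and without library 6 edgeR called Klrb1, Klrc3 and Klrk1. Klrc3, an NKG2 family gene beside the cluster, had 253, 199.7 and 238 CPM in S303/7A 5, 6 and 7, against 92.2, 85.3 and 69.1 CPM in WT 1, 2 and 3. Unlike most Ly49 members, its library 6 was far above WT, as for Klra17. Klrk1, which encodes NKG2D, had 2233, 1848 and 2276 CPM, against 1455, 1357 and 1483 CPM, with an adjusted p of 0.0700 (edgeR). Klrd1, the partner chain of NKG2 receptors, had a log2 fold of -0.35 ± 0.11 (adjusted p 0.374, edgeR).

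The tested genes whose centred log2 CPM profiles over the 6 libraries lay closest to a member's are given as a description. For Klra1 these were Glo1 (root mean square difference 0.19 log2 units, Pearson's r 0.98 over 6 libraries), H2-T-ps and Socs2. For Klra14-ps they were H2-Q4 (0.16, r 0.99), Ptprv and Actr3-ps, and for Klra5 Actr3-ps (0.28), Glo1 and H2-Q4. Glo1 had 139, 51.4 and 139.9 CPM in S303/7A 5, 6 and 7, against 46.3, 47.5 and 45.6 CPM in WT 1, 2 and 3. Glo1, H2-T-ps and H2-Q4 lie on chromosome 17, Socs2 on chromosome 10 and Ptprv on chromosome 1. Actr3-ps had no position in the annotation used. Genes named here were picked for their likeness to a member, so their sharing its pattern is no finding.

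For Klra17 the closest profiles were those of Camk2b (0.23 log2 units, r 0.98), the cytokine gene Il15 (0.41) and Pik3ip1 (0.44), all of them high in library 6 too. Klra7 was closest to Pla2g4a (0.20), the integrin gene Itgax and Baiap3. Klra8 was closest to Rab11b-ps2 (0.10), Wwp1 and Nacc1, and Klra4 to Asrgl1 (0.03), Dynlt1f and Srgn. For Klra3 they were Mmaa (0.06), Hmgb3 and Pgap2, for Klra9 Zfp940 (0.06), Stx17 and Nr4a1, and for Klra13-ps Nrde2 (0.04), Hsp90ab1 and Farsa. Nothing about function or control follows from a close profile.

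Summed markers of basophils and platelets, both of which carry CD49b, were below every WT library in all 3 S303/7A libraries. So were those of neutrophils, monocytes and macrophages, erythroid cells and conventional dendritic cells, although few single markers passed the test. Taken singly, 8.37% of all tested genes were lower in S303/7A without overlap. Of 8 basophil markers 1, Ms4a2, was called lower and 8 had folds below 0, with a summed level of 255 to 356 CPM in S303/7A and 416 to 849 CPM in WT. Of 8 platelet markers 7 were tested, 0 were called and 7 had folds below 0, with 99.5 to 141 CPM in S303/7A and 215 to 231 CPM in WT. Their part in the levels of the Ly49 members was not tested. Erythroid markers were at 11.5 to 14.0 CPM in S303/7A and 17.6 to 24.7 CPM in WT, most of it Gata1. Conventional dendritic cell markers were at 327 to 509 CPM and 559 to 775 CPM, most of it Itgax, which NK cells express too. Single markers in these lists went both ways. Folds above 0 were seen for 4 of 6 tested conventional dendritic cell markers and 3 of 7 erythroid markers. They were seen for 2 of 6 neutrophil markers and 1 of 6 monocyte and macrophage markers. Cxcr2 made up most of the neutrophil sum. Lyz2, Adgre1 and Cd14 were a small part of the monocyte and macrophage sum. T cell markers (429 to 468 CPM and 381 to 518 CPM), B cell markers (524 to 656 CPM and 334 to 697 CPM) and innate lymphoid markers (608 to 631 CPM and 428 to 653 CPM) overlapped between S303/7A and WT. None of the erythroid, dendritic, T cell, B cell, innate lymphoid, monocyte or neutrophil markers was called by edgeR, and DESeq2 called Itgax, Cxcr2, Gata1 and Klf1 lower and Trbc2 higher. Without library 6 edgeR called Itgax lower, and neither Ms4a2 nor Klrb1c. DESeq2 called 5 basophil and 4 platelet markers lower, and limma-voom 0 of either.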

How the data were processed

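The submitters' processing notes list the build GRCm38 (mm10) and the tools Trimmomatic, STAR, featureCounts and DESeq2, with no versions. RNA was amplified with the SMART-seq HT kit, per the labels' protocols. Not given in the sources used here were the annotation release, the strand setting and the handling of multiply matching reads. The authors deposited raw counts per gene for 55291 rows, which were the values analysed, and a normalized table that was not used.

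Testing used edgeR 4.0.16 (R 4.3.3). After filterByExpr (minimum count 10, minimum total 15) 16480 genes remained, TMM scaling was applied, and S303/7A was compared with WT by the quasi-likelihood test, with Benjamini-Hochberg adjustment over all genes tested and a threshold of 0.05. The code was tested on simulated data. CPM values are TMM-scaled. The SE of a log2 fold is its size divided by the square root of the test's F. DESeq2 1.42.0, limma-voom (limma 3.58.1), other scalings, thinning and leaving out each library were alternatives. The 3 mice per genotype share no replicate numbers. Precision follows the counts given. The p-values rest on the spread between the 3 mice within each genotype, with error estimates that also draw on the other tested genes.

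The members, gene lists and tests were chosen with earlier results of these data known. The genes named are the 10 members, the other Klra rows, 8 fixed pathway genes, Hsf1 as the mutated gene, called list members, up to 3 others per list with the smallest p, and, for each member, the 3 genes with the closest profile (log2 of CPM + 0.1, mean of at least 2). Genes named outside this rule were chosen after their values were seen. Positions and start codons are from GENCODE M21, promoters from RefSeq (GRCm38.p6).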

Additional observations from a re-analysis of the deposited data

How the results depend on the processing

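The 60 genes called became 171 without the low-count filter, 437 with DESeq2 and 38 with limma-voom, and ranged from 5 to 57 when 1 library was left out, namely 5, 21 and 27 when WT 2, 3 or 1 was omitted and 30, 31 and 57 when S303/7A 7, 5 or 6 was. The count of members called, 1 with all libraries, was 2 without the low-count filter (Klra5 and Klra17), 4 with DESeq2 (Klra5, Klra17 and both pseudogenes) and 0 with limma-voom, and ranged from 0 to 6 when 1 library was left out. It was 0 without any 1 of the other 5 libraries and 6 without S303/7A 6, the library singled out by its levels of these members. With DESeq2's size factors, library totals or counts thinned to equal totals it remained Klra17 alone, and its edgeR adjusted p was 0.0465, 0.0442 or 0.0473. No member's log2 fold changed sign under any of the 12 alternatives. The difference in activating share, 2.93 points, was 5.04 points per kb of exon, 3.10 without Klra17, 2.94 after thinning and from 2.14 to 3.54 when 1 library was left out. The causes were not tested. No paired analysis was possible because the groups share no replicate numbers. With 3 mice per genotype, an exact test of a single value cannot go below p = 0.1.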
